A study of Mus musculus with 6 samples.

Results

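Chemokines and the receptors of chemokines and interleukins were compared between dorsal root ganglia (DRG) and spinal cord (SC), both lumbar, of the mouse. The members were all probe sets annotated to exactly one gene whose symbol begins with Ccl, Ccr, Cxcl or Cxcr and a digit, or with Il, a number and r, leaving out Il31ra. This rule, which uses names only, gave 135 probe sets of 81 genes, out of 45029 probe sets and 18191 named genes tested. The source material was total RNA and the label was biotin, with 3 arrays for DRG and 3 for SC. Each array held a pool of 4 mice, all males of strain C57BL/6J at an age of 3 months. Left and right ganglia were combined, and the labels give no treatment. Pooling averages over single mice, so the SDs below are between pools and do not show the spread between single mice.

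Chemokines are small secreted proteins that draw cells, mostly leukocytes, along a gradient, and they act through G-protein-coupled receptors named after the ligand class (Ccr for CC ligands, Cxcr for CXC ligands). Interleukin receptors are assembled from a ligand-specific chain and a chain shared between several cytokines, and many of them signal through Jak kinases and Stat factors, while those for interleukin-1 and its relatives use Toll-type adaptors. In sensory ganglia and spinal cord these genes are known from work on inflammation and pain, where neurons, glia, macrophages and vessels all carry some of them.

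Each tissue carried its own markers. All 8 measured sensory neuron markers and all 6 Schwann cell markers were called higher in DRG, and 6 of 7 spinal neuron markers, 7 of 7 astrocyte markers and 6 of 6 oligodendrocyte markers were called higher in SC. The exception was Chat, the enzyme of acetylcholine synthesis in motor neurons, with signals of 81.4, 88.2 and 74.3 in DRG and 111, 86.8 and 102 in SC. This probe set was dim, above the background level defined below on 0 of 3 DRG arrays and 1 of 3 SC arrays. Correlations of log2 signals ran from 0.966 to 0.970 within DRG, from 0.966 to 0.969 within SC and from 0.891 to 0.898 between the tissues. A call here means a limma adjusted p under 0.05 over all probe sets, and differences are DRG minus SC of log2(signal + 16), which makes those of dim probe sets small. In pooled tissue, fewer cells of a type and less RNA per cell cannot be told apart.

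Most of these genes were dim in both tissues, and a small number stood far apart. Il10rb, Ccl11, Il4ra, Cxcr4 and Cxcl10 were the members with the largest differences toward DRG, and Cxcl14, Il1rap, Ccl17, Ccl25, Il17ra and Il2ra those toward SC. Of the 135 probe sets, 10 (7.41%) were called higher in DRG, where 22.7% of all probe sets tested were. Toward SC the count was 14 (10.4%), where 9.78% of all probe sets were. Both the counts and these shares moved with the array scaling. After quantile normalization 7.41% of members were called higher in DRG, against 14.9% of all probe sets, and 9.63% higher in SC, against 14.4% of all. On signals before the authors' array scaling it was 4.44% of members toward DRG, against 13.3% of all, and 15.6% toward SC, against 19.9% of all. With a log2 difference of at least 1 as well, 7 were called higher in DRG, against a background of 8.45%, and 8 higher in SC, against a background of 4.79%. The 3 DRG arrays all lay above the 3 SC arrays for 18 members, where 28.4% of all probe sets did so, and all below for 15, where 15.1% did. Taking each gene by its brightest probe set, 7 of the 81 genes were called higher in DRG and 8 higher in SC, with shares over all genes of 31.8% and 9.69%. The median difference of the 135 probe sets was −0.01, against 0.08 over all probe sets tested.

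**Figure D1:**
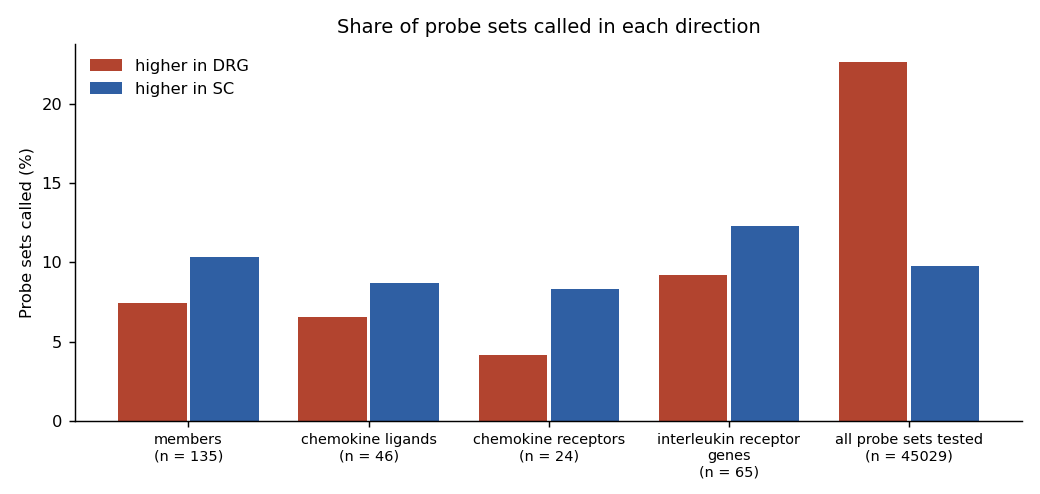
Share of probe sets called higher in DRG (red) and higher in SC (blue), in percent, for the 135 members, their 3 role groups and all 45029 probe sets tested. The red bar of the members, 7.41%, is shorter than that of all probe sets, 22.7%, while the blue bars are of like height.

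Signals of most members were low, and the part of this in the share of calls was not tested. A background level was set on each array from genes not expected in either tissue, as the 95th percentile of the signals of 51 probe sets of 36 liver, pancreas, testis, egg and pituitary genes. It was 126, 170 and 143 on the DRG arrays and 97.1, 101 and 171 on the SC arrays. On no array did 102 of the 135 members (75.6%) exceed it, where 44.8% of all probe sets did not. Only 15 probe sets of 12 genes exceeded it on all 3 arrays of at least 1 tissue: Ccl27a, Ccl28, Cxcl1, Cxcl12, Cxcl14, Cxcl16, Cxcr4, Il10rb, Il17ra, Il17re, Il1rap and Il6ra. Where the dimmer tissue did not exceed this level on any array, the fold is given as a lower bound against the higher of the level and the tissue's own signal.

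**Figure D2:**
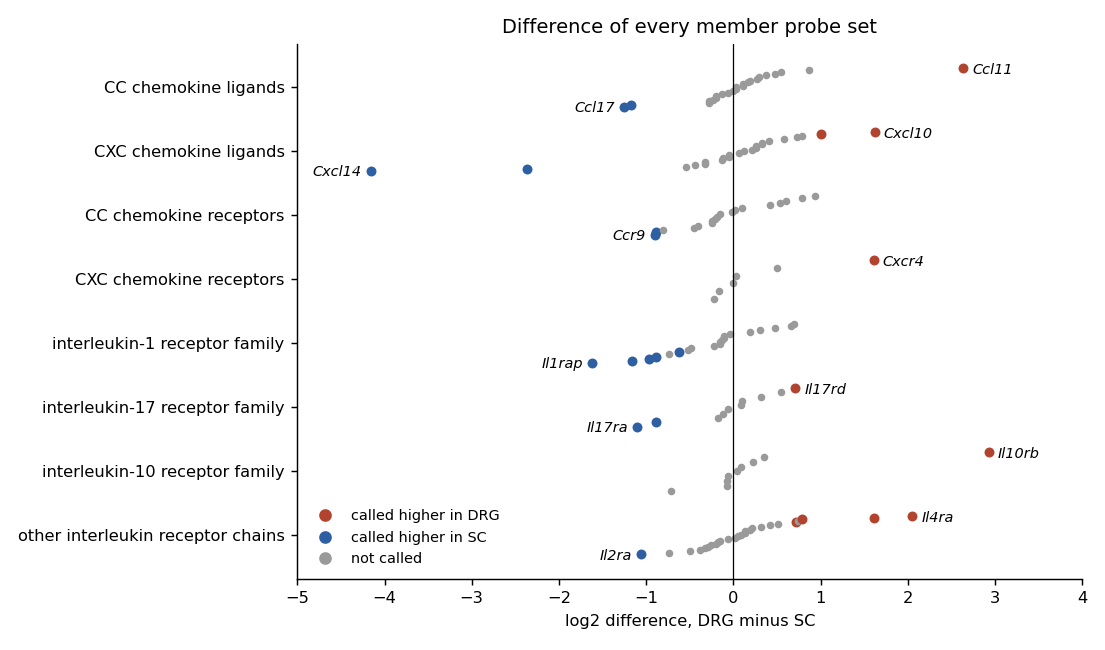
Each point is a member probe set, placed by its log2 difference, DRG minus SC, and grouped by family, with the most extreme called gene named at each end. Most of the 135 points lie near 0, the farthest to the right is Il10rb at 2.93, and the farthest to the left is Cxcl14 at −4.16.

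The promoters of 5 genes are shown, those with the largest differences among the member genes that have an entry in the promoter table: Il4ra, Cxcr4 and Cxcl10 were higher in DRG, and Cxcl14 and Il1rap higher in SC. Each run is RefSeq sequence of assembly GRCm38.p6 on the strand of the gene, from 250 bases before the start site to 50 after it. Capitals mark matches to 4 motifs searched on both strands: GGNNTTTCC for NF-kappaB, TTCNNNGAA for Stat factors, GAAANNGAA for interferon regulatory factors (IRF) and TATAAA for the TATA box. The windows are chr7:125552021-125552320 on the plus strand for Il4ra, chr1:128592250-128592549 on the minus strand for Cxcr4, chr5:92348840-92349139 on the minus strand for Cxcl10, chr13:56296502-56296801 on the minus strand for Cxcl14 and chr16:26581455-26581754 on the plus strand for Il1rap.
Il4ra: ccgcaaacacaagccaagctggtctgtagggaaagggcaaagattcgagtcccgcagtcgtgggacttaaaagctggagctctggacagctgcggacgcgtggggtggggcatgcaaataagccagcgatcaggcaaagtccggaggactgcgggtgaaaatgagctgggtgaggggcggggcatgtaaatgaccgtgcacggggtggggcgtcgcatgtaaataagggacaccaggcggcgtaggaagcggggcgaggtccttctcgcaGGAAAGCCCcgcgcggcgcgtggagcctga
Cxcr4: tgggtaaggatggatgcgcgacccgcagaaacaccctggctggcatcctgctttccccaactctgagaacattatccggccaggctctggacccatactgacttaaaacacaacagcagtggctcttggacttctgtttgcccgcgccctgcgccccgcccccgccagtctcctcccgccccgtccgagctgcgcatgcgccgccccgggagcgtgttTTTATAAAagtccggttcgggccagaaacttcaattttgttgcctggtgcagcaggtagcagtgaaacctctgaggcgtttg
Cxcl10: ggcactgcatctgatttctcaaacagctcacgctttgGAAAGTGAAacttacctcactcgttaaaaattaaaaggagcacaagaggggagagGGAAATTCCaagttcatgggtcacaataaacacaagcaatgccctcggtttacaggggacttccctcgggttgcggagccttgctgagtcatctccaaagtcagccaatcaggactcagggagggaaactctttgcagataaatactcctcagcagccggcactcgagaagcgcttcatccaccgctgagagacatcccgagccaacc
Cxcl14: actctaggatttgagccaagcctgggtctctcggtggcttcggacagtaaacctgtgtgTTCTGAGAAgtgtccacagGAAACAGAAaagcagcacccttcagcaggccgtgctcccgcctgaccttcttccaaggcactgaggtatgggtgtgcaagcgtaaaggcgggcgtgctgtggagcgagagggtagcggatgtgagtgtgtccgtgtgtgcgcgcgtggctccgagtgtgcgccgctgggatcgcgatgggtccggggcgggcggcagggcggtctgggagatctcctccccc
Il1rap: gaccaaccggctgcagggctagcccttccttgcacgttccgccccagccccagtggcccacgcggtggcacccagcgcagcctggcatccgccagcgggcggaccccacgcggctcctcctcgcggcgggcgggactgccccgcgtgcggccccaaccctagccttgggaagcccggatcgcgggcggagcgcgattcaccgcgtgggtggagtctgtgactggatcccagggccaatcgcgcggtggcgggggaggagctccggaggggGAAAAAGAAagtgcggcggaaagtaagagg

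The NF-kappaB motif stood 21 bases after the start site in Il4ra and at −158 in Cxcl10, in both on the other strand. Cxcr4 held a pair of TATA box matches at −32 and −30, which overlap on opposite strands. An IRF match stood at −213 in Cxcl10, at −172 in Cxcl14 and at 21 in Il1rap, so this motif occurred in genes of both directions. Cxcl14 also held a Stat match at −191. Entries were found for 61 of the 81 genes, with 71 promoters. The NF-kappaB motif was in 14 of these 71 (19.7%), against 5.82% of all 32851 promoters in the table. The 13 genes were Ccl20, Ccl9, Ccr3, Cxcl1, Cxcl10, Cxcl2, Cxcl3, Cxcl9, Il17rc, Il18rap, Il1rl2, Il1rn and Il4ra. Of these, Cxcl10 and Il4ra were called higher in DRG, Ccr3 was called higher in SC, and the other 10 were not called. The Stat motif was in 11.3% of member promoters against 8.30% of all, the IRF motif in 12.7% against 8.56%, and the TATA box in 18.3% against 13.6%. These are matches of letters in a window and no measure of binding.

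Among the CC ligands, Ccl11 stood out toward DRG and Ccl17 and Ccl25 toward SC. Of the 23 CC ligand probe sets, 1 (4.35%) was called higher in DRG, where 22.7% of all probe sets were. Toward SC, 2 (8.70%) were called, where 9.78% of all were. Ccl11, also called eotaxin, attracts eosinophils through Ccr3. Its signals were 146, 134 and 174 in DRG, against 18.9, 7.46 and 7.58 in SC. All DRG pools lay well above all SC pools, with means of 151 ± 20.7 in DRG and 11.3 ± 6.58 in SC (SD, n = 3 each). The log2 difference was 2.63 ± 0.26 (SE; limma adjusted p = 4.74e-05), and the bound was at least 1.27-fold because SC lay under the background level. Ccl11 exceeded that level on 2 of 3 DRG arrays. Its receptor Ccr3 had signals of 6.36, 20.1 and 6.27 in DRG and 46, 33.2 and 21.2 in SC, all under that level. The direction was opposite to that of Ccl11, with a log2 difference of −0.89 (limma adjusted p = 0.045) that lost its call in 10 of 16 other settings, among them quantile normalization (0.0573).

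Most fibroblast and meningeal markers moved in the same direction as Ccl11. Of 9 such genes, 8 were called higher in DRG, where 31.8% of all genes were. The summed signal of the 9 ran from 16452 to 17776 in DRG and from 3315 to 3543 in SC. Pdgfra went the other way, at −0.27 (limma adjusted p = 0.0797). It was called higher in SC after quantile normalization (limma adjusted p = 0.00499) and before the array scaling (limma adjusted p = 0.00124). Dcn, a matrix proteoglycan made by fibroblasts, had signals of 7091, 6820 and 7872 in DRG, against 659, 598 and 700.2 in SC. The part of fibroblasts and meninges in the Ccl11 result was not tested.

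Ccl17, which acts on T cells through Ccr4, had signals of 22, 15.9 and 8.13 in DRG, against 48.7, 56.1 and 68.9 in SC. The pools did not overlap, and the log2 difference was −1.25 ± 0.27 (SE; limma adjusted p = 0.0053), although neither tissue exceeded the background level. Ccr4 had a log2 difference of −0.40 (95% interval −1.11 to 0.30; limma adjusted p = 0.396). Ccl25, a gut and thymus chemokine that acts through Ccr9, was called on the brighter of its 2 probe sets, with signals of 16.4, 43.7 and 58.8 in DRG and 78, 125 and 108 in SC. Its log2 difference was −1.17 (limma adjusted p = 0.0257), and the other probe set gave −0.28 (limma adjusted p = 0.553). The Ccl25 call was lost without DRG pool 1 (0.056), SC pool 2 (0.097) or SC pool 3 (0.0791). Ccr9 was called lower in DRG on 1 of 5 probe sets, at −0.90 (limma adjusted p = 0.0211), again on signals of at most 35.8. That call was lost without DRG pool 1 (0.0734), DRG pool 2 (0.0719), SC pool 1 (0.0531) or SC pool 2 (0.058).

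The remaining CC ligands showed no call. Ccl27a and Ccl28, epithelial chemokines that share the receptor Ccr10, were the only ones above the background level on all arrays of a tissue, and both were so on all 6 arrays. Ccl27a had signals of 237, 209.9 and 243 in DRG, against 181, 268 and 281 in SC, on a probe set whose probes may hit more than 1 transcript. Ccl28 had 169, 209 and 179 in DRG, against 180.1, 185 and 191 in SC. The groups overlapped for both genes, with log2 differences of −0.06 (95% interval −0.43 to 0.32) and −0.00 (95% interval −0.29 to 0.29). Ccl2, a monocyte attractant, had 38.7, 115 and 3.72 in DRG and 12.9, 9.3 and 46.2 in SC, all under the background level. Ccl5, a T cell attractant, had 24.5, 43.2 and 6.16 in DRG and 25.3, 6.84 and 4.88 in SC, also under it.

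Among the CXC ligands, Cxcl14 was lower and Cxcl10 and Cxcl11 were higher in DRG. Of 23 probe sets, 2 (8.70%) were called higher in DRG, where 22.7% of all probe sets were, and 2 (8.70%) higher in SC, where 9.78% were. Cxcl14, a chemokine of epithelia and neural tissue, had signals of 112, 165 and 131 in DRG, against 761, 745 and 770.4 in SC. The SC pools lay close together and far above all DRG pools, with means of 136 ± 27.1 in DRG and 759 ± 13 in SC (SD, n = 3 each). The log2 difference was −2.36 ± 0.13 (SE; limma adjusted p = 1.04e-06), at least 5.21-fold lower in DRG, where no array exceeded the background level. The second Cxcl14 probe set gave signals of 2.56, 28.9 and 13.2 in DRG and 494, 528 and 484 in SC, a log2 difference of −4.16 (limma adjusted p = 5.04e-06) and a bound of at least 3.44-fold lower. The ratios of the means, SC over DRG, were 5.57 for the first probe set and 33.7 for the second, both larger than the bounds.

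Cxcl10 and Cxcl11, interferon-induced ligands of Cxcr3, were both dim. Cxcl10 had signals of 126, 113 and 133 in DRG, against 49.4, 9.47 and 40.4 in SC. The groups did not overlap, and the log2 difference was 1.62 ± 0.35 (SE; limma adjusted p = 0.006), while no array exceeded the background level. This call was lost only with log2 of the deposited ratio, without a pseudocount (0.0534), among 16 other settings. Cxcl11 had signals of 65.8, 82.3 and 55.6 in DRG and 24.5, 13.3 and 44.5 in SC, with a log2 difference of 1.00 (limma adjusted p = 0.037), and its second probe set was not called (0.565). The Cxcl11 call was lost when any one of 5 pools was left out, all but SC pool 3. Cxcr3 showed overlapping signals of 104, 81 and 73.4 in DRG and 91.8, 104 and 97.3 in SC.

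Cxcl12, which signals through Cxcr4 and guides neural and blood progenitors, was above the background level on all 6 arrays with both of its brighter probe sets. One gave 233, 239 and 263 in DRG, against 276, 272 and 218 in SC, and the other 234, 236 and 234 in DRG, against 169.7, 208 and 205 in SC. The first overlapped between tissues, with a log2 difference of −0.05 (95% interval −0.33 to 0.23; limma adjusted p = 0.819), and the second did not overlap but was not called, at 0.26 (95% interval −0.01 to 0.53; limma adjusted p = 0.146). With signals before the authors' array scaling, the first was called lower in DRG, at −0.40 (limma adjusted p = 0.0304). Cxcl16, a membrane-bound ligand of Cxcr6, had a log2 difference of 0.33 (limma adjusted p = 0.236). Cxcl1, a neutrophil attractant that acts through Cxcr2, had one of −0.11 (limma adjusted p = 0.701) on a probe set of the same kind as that of Ccl27a.

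**Figure D3:**
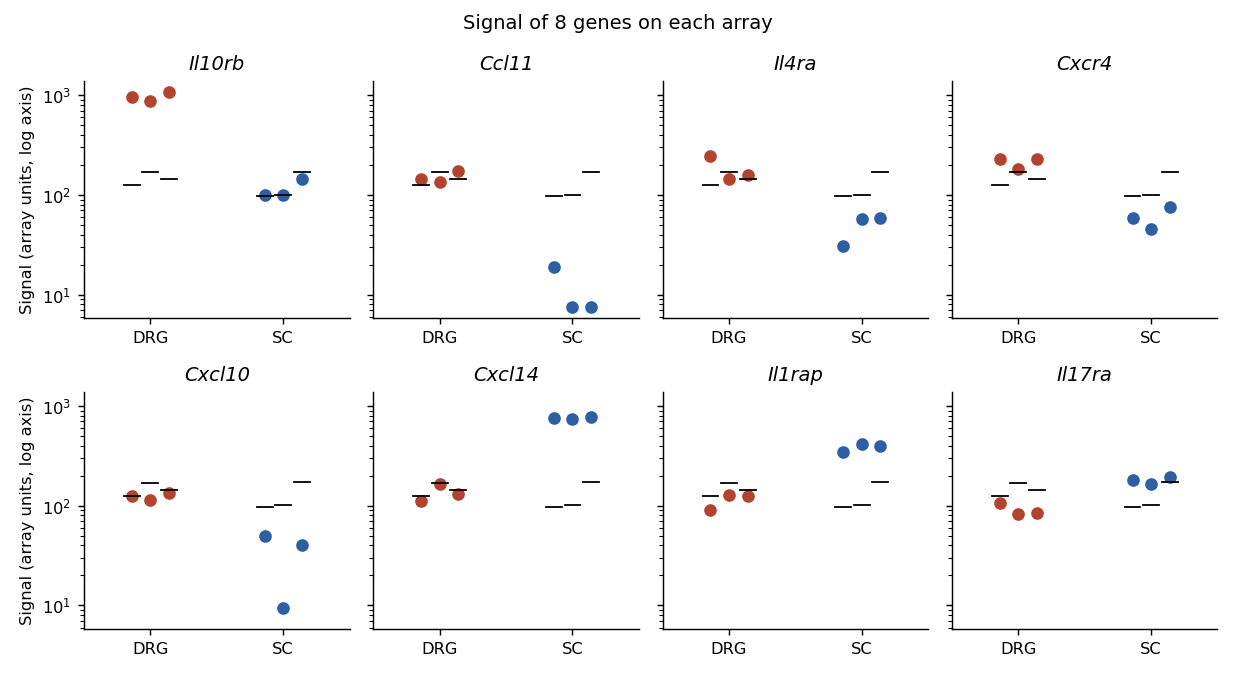
Signal on each array (points, log axis) for 8 genes, 3 DRG arrays in red at the left of each panel and 3 SC arrays in blue at the right, with short bars for the background level of that array. Il10rb lies above the bars in DRG by a wide margin, Cxcl14 and Il1rap do so in SC, and Cxcl10 stays at or under the bars on all arrays.

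Of the 24 chemokine receptor probe sets, Cxcr4 alone was called higher in DRG, and 2 CC receptor probe sets, of Ccr3 and Ccr9, were called higher in SC. These are 4.17% toward DRG, against 22.7% of all probe sets, and 8.33% toward SC, against 9.78% of all. Cxcr4, the receptor of Cxcl12, is carried by leukocytes, progenitors and some neurons and glia. Its signals were 231, 180.2 and 231 in DRG, against 58.7, 45.2 and 76.5 in SC. Every DRG pool exceeded every SC pool, with means of 214 ± 29.4 in DRG and 60.1 ± 15.7 in SC (SD, n = 3 each), a log2 difference of 1.61 ± 0.21 (SE; limma adjusted p = 0.000247) and a bound of at least 1.79-fold. So Cxcr4 was higher in DRG, while the log2 differences of its ligand Cxcl12 were −0.05 and 0.26 on the 2 brighter probe sets. Ccr2, the monocyte receptor of Ccl2, had 4 probe sets with differences between −0.25 and 0.93, and none was called. None of the 18 CC receptor probe sets exceeded the background level on any array.

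Leukocyte markers were given by cell type, since chemokine receptors sit mostly on leukocytes. T cell markers were near the floor: none of 8 was called, 7 of 8 never exceeded the background level, and their sums ran from 402 to 463 in DRG and from 338 to 409 in SC. Over all genes, 31.8% were called higher in DRG and 9.69% higher in SC. Neutrophil markers were called higher in DRG for 4 of 7 genes, or 2 genes with quantile normalization and 1 before the array scaling, with sums from 2483 to 3907 in DRG and from 837 to 2687 in SC, which overlap. Among 17 macrophage and microglia markers, 4 were called higher in DRG (Lyz2, Mrc1, Cd163 and F13a1) and 9 higher in SC, among them the microglial genes P2ry12 and Tmem119, with sums from 3819 to 4106 in DRG and from 4943 to 5218 in SC. Of 7 mast cell markers, Cpa3 and Kit were called, both higher in DRG, and the sums ran from 1115 to 1256 in DRG and from 439 to 518 in SC. Kit, which other cells carry too, made up most of the sum, with means of 774 in DRG and 212 in SC. Of 6 B cell markers, 1 was called, Ebf1, higher in DRG, with sums from 1506 to 1624 in DRG and from 671 to 711 in SC. Ebf1 made up most of the DRG sum, with means of 1213 in DRG and 340 in SC. Of the 6 markers, 4 never exceeded the background level. The part of these cells in the Cxcr4 and Cxcl10 results was not tested.

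Interleukin receptor genes gave 65 probe sets, 6 (9.23%) called higher in DRG, against 22.7% of all probe sets, and 8 (12.3%) higher in SC, against 9.78% of all. By its name this group takes in Il1rn, the interleukin-1 receptor antagonist, which is not a receptor. Il10rb, the chain shared by the receptors of interleukin-10, interleukin-22 and the lambda interferons, showed the largest difference toward DRG of all members. Its signals were 963, 879 and 1083 in DRG, against 100, 101 and 145 in SC. The lowest DRG pool stood several times above the highest SC pool, with means of 974.9 ± 103 in DRG and 115 ± 26.0 in SC (SD, n = 3 each), 8.45-fold by the means. The log2 difference was 2.93 ± 0.15 (SE; limma adjusted p = 5.45e-07). SC exceeded the background level on 1 array of 3. The second Il10rb probe set was dim, at 63.4, 63.1 and 47.5 in DRG and 50.5, 53.4 and 38.3 in SC, and was not called (limma adjusted p = 0.566), so the finding rests on 1 probe set. The chains that pair with it were at or near the bottom of the scale: Il10ra had signals of at most 13.6 on its 3 probe sets, and Il22ra1 had 9.25, 7.79 and 4.99 in DRG and 7.19, 4.39 and 6.28 in SC.

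Il4ra, the chain that binds interleukin-4 and also takes part in the receptor for interleukin-13, was higher in DRG on 2 of its 3 probe sets. The brightest gave 247, 145 and 160.1 in DRG, against 30.5, 58 and 58.8 in SC. The groups lay apart although DRG pool 1 was far above the other DRG pools, with a log2 difference of 1.62 ± 0.27 (SE; limma adjusted p = 0.00132) and a bound of at least 1.51-fold. The second gave 92.8, 104 and 107 in DRG, against 16.6, 6.49 and 14.6 in SC, with a log2 difference of 2.05 (limma adjusted p = 0.000187), under the background level in both tissues. The third had overlapping pools and 0.75 (limma adjusted p = 0.146). Il13ra1, the partner of Il4ra in the interleukin-13 receptor, was called higher in DRG on 2 of 5 probe sets, at 0.79 (limma adjusted p = 0.0237) and 0.72 (limma adjusted p = 0.0338), but its brightest probe set was not called (0.22, limma adjusted p = 0.409). Before the array scaling neither Il13ra1 call held (0.133 and 0.195). Leaving out 1 pool ended the first without DRG pool 1, DRG pool 3, SC pool 2 or SC pool 3 (0.0619 to 0.094) and the second without DRG pool 1, DRG pool 2, SC pool 1 or SC pool 2 (0.0551 to 0.114).

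Il1rap, the co-receptor that interleukin-1, interleukin-33 and interleukin-36 all need, led the interleukin receptors toward SC. Its brightest probe set gave signals of 89.8, 129 and 126 in DRG, against 345, 412 and 394 in SC. Every SC pool lay above every DRG pool, with means of 115 ± 21.8 in DRG and 384 ± 34.7 in SC (SD, n = 3 each), a log2 difference of −1.62 ± 0.15 (SE; limma adjusted p = 3.12e-05) and a bound of at least 2.63-fold lower in DRG. A further 3 of its 5 probe sets were called in the same direction, at −0.62, −0.97 and −1.16, and the fifth was dim in both tissues at −0.15 (limma adjusted p = 0.779). The call at −0.97 was lost without SC pool 2 (0.0679), and that at −1.16 without SC pool 1 (0.0644), SC pool 2 (0.0541) or SC pool 3 (0.0562). The interleukin-1 receptor family, counted with Il1rn, had 20 probe sets. Of these, 5 were called higher in SC, where 9.78% of all probe sets were, and 0 higher in DRG by limma, where 22.7% were. In either direction, 6 had an unadjusted p under 0.05. Since 4 of the 5 calls belong to Il1rap, these are calls for 2 genes. The remaining call belonged to Il1rapl2, a family member of neurons, at −0.89 (limma adjusted p = 0.0122) on signals of at most 31.5. That call was lost without DRG pool 3 (limma adjusted p = 0.0516). Il1r1, the signalling receptor of interleukin-1, had 71.8, 35.1 and 43.1 in DRG and 25, 21.1 and 25.1 in SC. Its pools did not overlap, yet the log2 difference of 0.69 was not called (95% interval 0.07 to 1.32; limma adjusted p = 0.0889).

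The interleukin-17 receptor family gave calls in both directions. Il17ra, the chain common to receptors of several interleukin-17 cytokines, had 106, 82.1 and 84.2 in DRG, against 180.3, 166 and 194 in SC. The pools did not overlap, the log2 difference was −0.88 ± 0.17 (SE; limma adjusted p = 0.00254), at least 1.23-fold lower in DRG, and the second probe set gave −1.10 (limma adjusted p = 0.0083). Il17rd, which also restrains fibroblast growth factor signalling, was higher in DRG on 1 of 2 probe sets, with 139, 136 and 126 in DRG, against 75.5, 84.7 and 67.2 in SC. Its log2 difference was 0.71 (limma adjusted p = 0.0135), and 0.39 before the array scaling (limma adjusted p = 0.138). Il17re, a chain of the interleukin-17C receptor, was above the background level on all 6 arrays and overlapped between tissues, with 276, 253 and 306 in DRG, against 285, 318 and 271 in SC. The difference was −0.06 (95% interval −0.32 to 0.19; limma adjusted p = 0.74), and −0.42 before the array scaling (limma adjusted p = 0.014).

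Among the remaining chains, Il2ra, the high-affinity interleukin-2 receptor chain of activated and regulatory T cells, was lower in DRG on 1 of 2 probe sets, with 8.32, 27.2 and 22.3 in DRG and 56.4, 50.9 and 59.5 in SC. Its log2 difference was −1.06 (limma adjusted p = 0.0171), under the background level in both tissues, and the call was lost without DRG pool 1 (0.0515) or SC pool 3 (0.0537). Il6ra, which binds interleukin-6 before the complex joins the shared chain Il6st, had overlapping signals of 183, 228 and 112 in DRG and 216, 142 and 217 in SC, with a log2 difference of −0.16 (95% interval −0.72 to 0.41; limma adjusted p = 0.714).

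Calls within a gene never pointed both ways. Of the 35 member genes with several probe sets, 10 mixed called and uncalled ones, and 0 of the 81 genes had calls in opposite directions. Of the 24 called probe sets, 12 kept their call and direction in each of 16 other settings in which they were tested, 5 higher in DRG and 7 higher in SC. These belonged to 8 genes: Ccl11, Cxcr4, Il10rb and Il4ra in DRG, and Ccl17, Cxcl14, Il17ra and Il1rap in SC. None of the 24 was called in the opposite direction in any of the 16.

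**Figure D4:**
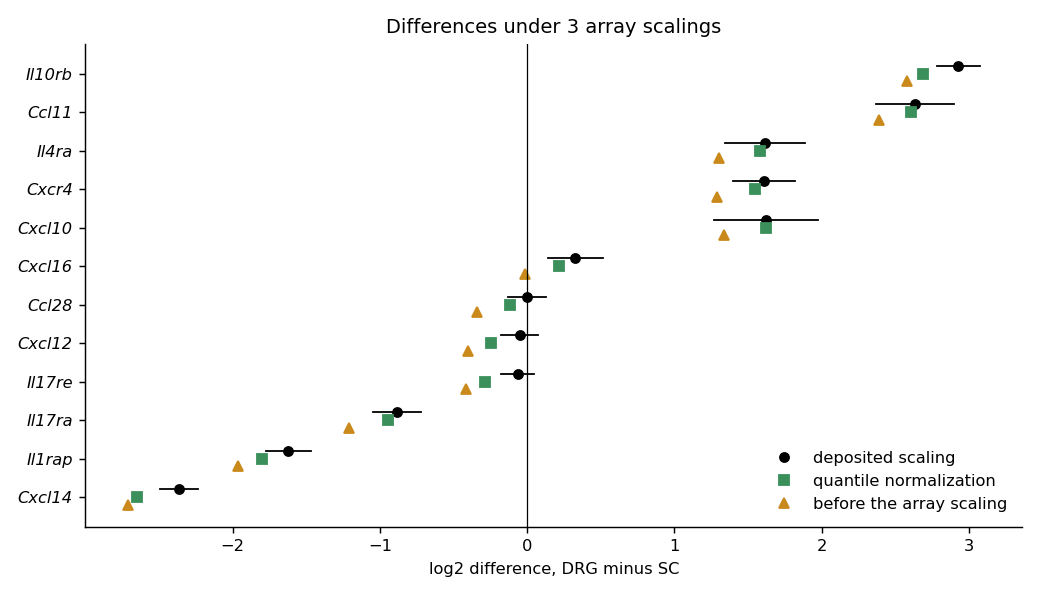
Log2 difference, DRG minus SC, of 12 genes on the deposited array scaling (black circle, bar of 1 SE each way), after quantile normalization (green square) and on signals before the authors' array scaling (orange triangle). The upper 5 and lower 3 genes stay on their side of 0 under all 3, while Cxcl16, Ccl28, Cxcl12 and Il17re lie near 0 and shift with the scaling, Cxcl16 to −0.02.

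Chemokine genes outside these names also differed in both directions. Of 14 measured, 4 were called higher in DRG, where 31.8% of all genes were, and 4 higher in SC, where 9.69% were. Their median log2 difference was 0.02. Cx3cl1, a membrane-bound chemokine of neurons, had signals of 131, 80.6 and 136 in DRG, against 1091, 1053 and 1032 in SC, a log2 difference of −3.05 (limma adjusted p = 8.62e-07). Its receptor Cx3cr1, a microglial and monocyte gene, was lower in DRG as well (−0.87, limma adjusted p = 0.0255), and so was Ccrl2, a chemerin-binding receptor (−1.61, limma adjusted p = 0.000806). Neither Cx3cr1 nor Ccrl2 exceeded the background level on any array. The Cx3cr1 call was lost with the replicate block (limma adjusted p = 0.0523), and its highest limma adjusted p over all settings was 0.0854. In the other direction, Ackr1, a receptor that binds many chemokines without signalling and is known from venules and red cells, had 2769, 2771 and 2732 in DRG, against 1004, 935 and 944 in SC (1.51, limma adjusted p = 2.06e-07). Blood markers gave 1 call of 5, Alas2, higher in DRG, and endothelial markers 3 calls higher in DRG and 2 higher in SC of 9 (1 and 2 with quantile normalization, 0 and 3 before the array scaling), with sums from 1676 to 1884 in DRG and from 1699.6 to 1898 in SC. Pf4, a platelet and macrophage chemokine, was also higher in DRG (1.24, limma adjusted p = 0.000194), as was Ackr3, a scavenger of Cxcl12, by 0.87 (limma adjusted p = 0.0376), though not after quantile normalization (0.0541) or before the array scaling (0.161).

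Of 31 measured interleukins, 2 (6.45%) were called higher in DRG, where 31.8% of all genes were, and 2 (6.45%) higher in SC, where 9.69% were. The median was 0.07. Il33, an alarmin of astrocytes and oligodendrocytes whose receptor includes Il1rap, had signals of 102, 151 and 207 in DRG, against 1251, 1370.4 and 1394 in SC. The log2 difference was −3.05 (limma adjusted p = 2.48e-06), the same direction as for Il1rap. Il18, an inflammasome-activated cytokine, was lower in DRG too (−1.29, limma adjusted p = 2.27e-05). Il7, a lymphocyte growth factor, had 181, 144 and 159 in DRG, against 17, 9.74 and 58.6 in SC, at least 1.35-fold higher (2.15, limma adjusted p = 0.00164), while its receptor chain Il7r was not called (−0.26, limma adjusted p = 0.536). Before the array scaling the counts became 1 higher in DRG and 6 higher in SC.

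Of the shared receptor chains named outside the Il series, Osmr and Lifr differed most. Of 10 measured, 5 were called higher in DRG, where 31.8% of all genes were, and 1 higher in SC, where 9.69% were, with a median of 0.52. Before the array scaling the counts were 3 and 2, where 19.3% and 19.7% of all genes were called. Osmr, the oncostatin M receptor chain that itch and pain neurons carry, had 798, 816 and 726 in DRG, against 83.9, 106 and 116 in SC (2.76, limma adjusted p = 2.96e-07). Lifr (2.34) and Il6st (1.49), which pair in the receptor for leukemia inhibitory factor, were higher as well, while Cntfr, the ciliary neurotrophic factor chain, was lower in DRG (−0.64, limma adjusted p = 0.00914). Interleukin-1 and Toll adaptors gave 4 calls higher in DRG, among them Tollip (0.75), Myd88 (0.62) and Tab2 (0.60), and 1 higher in SC, Irak2 (−0.64), of 11 measured, with 31.8% and 9.69% over all genes. Those counts were 1 and 1 with quantile normalization, and 2 and 2 before the array scaling.

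Of 20 measured Jak-Stat genes, 14 were called higher in DRG, where 31.8% of all genes were, and 0 higher in SC by limma, where 9.69% were. At an unadjusted p under 0.05 there were 15, and the median was 0.55. After quantile normalization 10 were called toward DRG, where 20.5% of all genes were, and 0 toward SC, where 16% were. Before the array scaling 9 were called toward DRG (19.3% of all genes) and 1 toward SC (19.7%). Stat6, the factor that acts downstream of Il4ra, had signals of 1135, 1157 and 1025 in DRG, against 129, 84.7 and 93.6 in SC. Its pools were far apart, with a log2 difference of 3.26 (limma adjusted p = 2.1e-07). Socs2 (2.64) and Socs3 (2.33), feedback inhibitors of cytokine receptors, followed. The members' own count of 7 of 81 genes higher in DRG and this count of 14 of 20 come from the same 6 arrays, and no test of the difference between the lists was made.

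**Figure D5:**
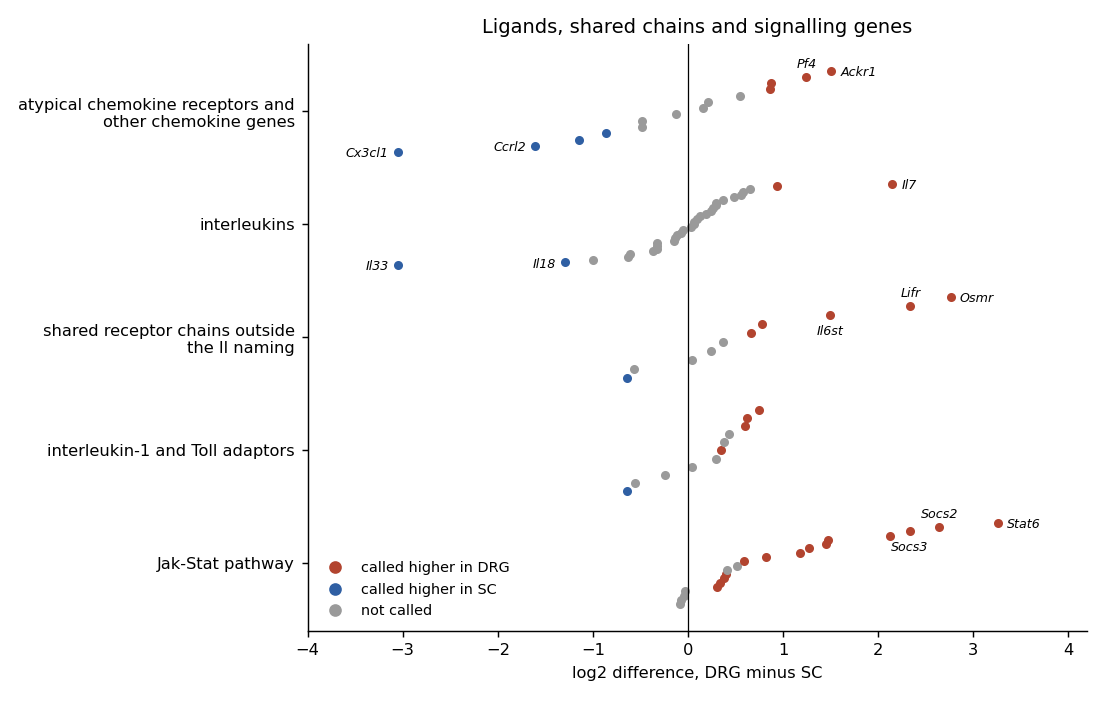
Log2 difference, DRG minus SC, of the measured genes of 5 lists related to these receptors, 1 point a gene, red where called higher in DRG, blue where called higher in SC and grey where not called, with the most extreme called genes named. Of the Jak-Stat genes 14 of 20 points are red, while most of the 31 interleukins are grey, with Il33 at −3.05 and Il7 at 2.15 as the ends.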

How the data were processed

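The submitters' processing notes name MAS5, with no version, as the tool behind the signals. What was deposited were ratios on a linear scale, per the values themselves, and the tests had been chosen for either signals or ratios. How the authors made these ratios is not given in the sources used here: from the values, each was taken as an array signal divided by an array factor and by the probe set's median. Signals were recovered by finding the multiplier that puts the 6 values on steps of 0.1, for 45093 of 45101 probe sets, leaving out 64 controls. In a simulation of 2000 probe sets, 98.45% were recovered exactly and 1.55% up to a factor common to the 6 arrays. The deposited array scaling was kept. Its factors ran from 84.5 to 89.5 in DRG and from 110.5 to 112.6 in SC.

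Names came from the platform annotation, matched to RefSeq genes of GRCm38.p6. The 932 probe sets naming several genes, 4 of them with a member, were not used as members. The files name no genome build. The tissue difference of log2(signal + 16) was tested over all 45029 probe sets with limma 3.58.1 in R 4.3.3 (lmFit, eBayes with an intensity trend, two-sided, Benjamini-Hochberg over all, threshold 0.05), with tissue as the single term. On simulated data for this comparison of 45029 probe sets, 94% of 200 probe sets changed by 1 on the log2 scale were called. The 200 were drawn only from probe sets above the median signal, where 25 of the 135 members lie. The 94% therefore does not cover the dimmer members. Of all calls in the simulation, 6.47% were of unchanged probe sets. With 3 arrays a tissue, their number limits the precision, and the p-values measure the spread between pools, which the labels call independent.

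A gene was represented by its brightest probe set. Named were members called at a log2 difference of at least 1, members above the background level on all arrays of a tissue, and the leading called genes of each related list. A few more were named after their values were seen: Ccl2, Ccl5, Ccr2, Ccr3, Ccr4, Ccr9, Cxcr3, Il10ra, Il13ra1, Il17rd, Il1r1, Il1rapl2, Il22ra1, Il7r and Chat. The 38 genes behind the background level, of which 36 were measured, and the promoter motifs were chosen after the data were seen. The NF-kappaB and IRF motifs were 1 base longer in a first search. The members and the lists were chosen with earlier results of these data known, so their counts are descriptions. Alternatives were 16 settings of scaling, pseudocount, filter, variance model, probe-set choice, replicate block and left-out arrays. Other steps ran in Python 3.11.15 with matplotlib 3.10.9 for the plots, pandas 2.3.3, numba 0.67.0 and numpy 2.4.6.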

Additional observations from a re-analysis of the deposited data

How the results depend on the processing

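The count of members called higher in DRG, 10 of 135, became 6 of 135 on signals before the authors' array scaling. It became 4 of 25 when probe sets under the median signal were left out, where 9796 of all 22514 probe sets were called. The count higher in SC, 14 of 135, became 5 of 25 with that filter, where 3529 of all 22514 probe sets were called. With 1 probe set a gene it was 8 of 81, where 1861 of all 18191 genes were called. Before the array scaling it was 21 of 135, where 8969 of all 45029 probe sets were called. Leaving out 1 pool at a time gave 8 to 11 higher in DRG and 9 to 14 higher in SC, the lowest without SC pool 2. The median log2 difference, −0.01, was −0.21 before the array scaling, −0.0573 with the filter and −0.0509 with 1 probe set a gene, and ran from −0.0348 to 0.0486 with 1 pool left out. The replicate block gave 8 and 13 calls. Deviations of equally numbered pools correlated at −0.01, −0.02 and 0.0035, and those of unequally numbered pools at −0.0138 to 0.0248. The labels do not say whether equal numbers mark the same mice. With 3 arrays a tissue, values this near 0 cannot decide it. Over all probe sets, 69.8% of calls were toward DRG with the deposited scaling (median difference 0.08), 50.9% with quantile normalization (0.01) and 40.1% with signals before the array scaling (−0.18). Uncalled differences near 0 changed sign with 1 pool left out: Ccl27a ran from −0.24 to 0.0519, Ccl28 from −0.0831 to 0.0573, Cxcl1 from −0.22 to 0.0455, Cxcl12 from −0.15 to 0.00664 and Il6ra from −0.36 to 0.11, and Cxcl16 was −0.0153 before the array scaling. The deposited scaling multiplied DRG signals by 1.10 to 1.16 and SC signals by 0.872 to 0.888, which by itself moves log2 differences toward DRG. Signals before it already had a common level, with a 2% trimmed mean of 247.4 to 247.5 on every array. The cause of the other shifts was not tested. Signals near the background level limit what can be said of most members.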
